A study of Arabidopsis thaliana with 42 samples.

Results

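The genes described here encode the protein subunits of the cytosolic ribosome of Arabidopsis thaliana. The 52 loci were taken by name, as nuclear genes of cytosolic ribosomal proteins, out of the 27667 loci of the series' count table. No measured value served as a criterion, but the list was drawn up with earlier results of these data known. Of these genes 23 belong to the small (40S) subunit and 29 to the large (60S) subunit. Families of paralogues hold 34 of them, in 15 families. All 52 passed the filter on low counts in every fit.

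RNA was sequenced from whole seedlings, 5 days old, in 42 libraries that form 14 groups of 3 replicates. Every sample was of the ecotype Col-0, with the genotype given either as Col-0, the wild type, or as rh6812, a name that refers to RH6, RH8 and RH12. These DEAD-box RNA helicases are the plant relatives of yeast DHH1 and animal DDX6. Untreated seedlings of both genotypes gave 6 libraries of total RNA and 6 of polysome-bound RNA, all selected for poly(A)+ RNA. The other 30 libraries were depleted of rRNA and came from both genotypes under cordycepin at 0, 15, 30, 60 and 120 min, and the 0 min samples carry the agent in their labels too. The alleles, the number of lines behind rh6812 and the way polysomes were isolated were not given in the sources used here. Whether replicates came from separate cultures is not stated in the labels, so a p-value covers only the variation among these libraries, and that may be technical.

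Each cytosolic ribosome joins ribosomal RNAs with a set of small proteins, most of them present once per particle, and the particles are built in the nucleolus. Plants keep several expressed genes for most of these proteins, so a given protein can be supplied by different paralogues. The helicases named in the label act in other organisms on mRNA decapping and on repression of translation, and an mRNA under active translation is found on polysomes. Cordycepin is an adenosine analogue that ends RNA chains, so the course of a transcript afterwards follows its decay relative to other transcripts.

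Promoters of ribosomal protein genes in Arabidopsis are known for short shared elements, which are shown here because nearly all of these transcripts were higher together in poly(A)+ RNA, though not at 0 min. Windows of 250 bases upstream of the annotated gene start were read from RefSeq (TAIR10.1), and both strands were searched for the telo box (AAACCCTA) and for site II in its C form (TGGGCC) and T form (TGGGCT). A C-form match can overlap its own complement. Capitals mark these matches, and each window is written 5′ to 3′ towards the gene. The S6 and L3 pairs are printed because their paralogues responded differently, and AT2G36160, which encodes a small subunit protein annotated in the S11 family, because its window held both elements.
RPS6A: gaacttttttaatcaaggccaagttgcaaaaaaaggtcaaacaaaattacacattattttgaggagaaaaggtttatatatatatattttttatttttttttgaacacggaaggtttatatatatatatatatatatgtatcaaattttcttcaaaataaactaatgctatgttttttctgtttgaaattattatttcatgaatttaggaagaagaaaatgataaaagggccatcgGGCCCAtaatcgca
RPS6B: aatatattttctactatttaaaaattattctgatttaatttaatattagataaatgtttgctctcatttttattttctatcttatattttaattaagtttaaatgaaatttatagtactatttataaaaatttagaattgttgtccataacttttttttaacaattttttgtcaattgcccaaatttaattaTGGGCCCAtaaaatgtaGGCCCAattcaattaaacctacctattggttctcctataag
RPL3A: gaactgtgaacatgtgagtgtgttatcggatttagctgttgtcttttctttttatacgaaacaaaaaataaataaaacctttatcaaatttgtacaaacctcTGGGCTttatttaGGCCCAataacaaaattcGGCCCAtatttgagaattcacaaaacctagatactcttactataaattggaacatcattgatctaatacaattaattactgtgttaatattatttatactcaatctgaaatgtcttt
RPL3B: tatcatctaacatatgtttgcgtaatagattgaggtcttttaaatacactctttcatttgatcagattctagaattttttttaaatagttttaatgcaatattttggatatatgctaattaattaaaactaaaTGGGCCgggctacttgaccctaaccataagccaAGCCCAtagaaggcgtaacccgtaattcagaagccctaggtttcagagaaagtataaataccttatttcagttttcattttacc
AT2G36160: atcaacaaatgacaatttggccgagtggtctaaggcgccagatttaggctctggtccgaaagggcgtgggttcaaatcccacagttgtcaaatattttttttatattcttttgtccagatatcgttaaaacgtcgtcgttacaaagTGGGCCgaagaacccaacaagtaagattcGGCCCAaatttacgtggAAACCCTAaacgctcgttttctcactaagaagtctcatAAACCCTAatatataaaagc
These windows lie at chr4:15347805-15348054 (RPS6A, reverse strand), chr5:3260255-3260504 (RPS6B, reverse strand), chr1:16266303-16266552 (RPL3A, forward strand), chr1:22723153-22723402 (RPL3B, reverse strand) and chr2:15169568-15169817 (AT2G36160, forward strand) of TAIR10.1. Site II in either form was present in 38 of the 52 windows, or 73.1%, against 19.2% of the windows of 27443 nuclear protein-coding genes. The telo box was present in 9 of 52, or 17.3%, against 4.49%. By subunit, site II was present in 15 of 23 small subunit genes and 23 of 29 large subunit genes. The median log2 difference between genotypes in total RNA was 0.77 for the 38 genes with site II and 0.86 for the 14 without it, a description with no test.

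The poly(A)+ libraries held 4611462 to 30654342 counts and the rRNA-depleted ones 11463206 to 22251739, and in the latter organelle genes took 43.6% to 60.7% of the counts. Levels are given in CPM, the counts divided by a TMM-scaled library total and brought to a common scale. RH8 was at 2.19 to 4.32 CPM in the 21 libraries labelled rh6812 against 27.7 to 39.4 in the 21 Col-0 libraries. RH12 was lower without overlap in each RNA set, at 23.4 to 26.1 against 36.2 to 39.7 CPM in total RNA, 19.1 to 25.5 against 39.98 to 43.8 in polysome RNA and 8.99 to 10.2 against 15.9 to 20.6 at 0 min. RH6 went against the label, at 92.9 to 435 CPM against 23.1 to 70.8, so each direction below is that of the libraries labelled rh6812. Counts from outside an altered stretch of a gene check nothing, and where the alleles lie was not given in the sources used here. All 8 green tissue markers and all 6 root markers listed for whole seedlings had counts in every group.

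In Col-0 total RNA the members differed widely in level. Per kilobase of annotated transcript, levels ran from 5.02 CPM for RPSaB, a copy of the small subunit protein SA, to 796 CPM for RPL18, with a median of 160 CPM. Together the 52 genes took 1.20% ± 0.08 (SD, n = 3) of the nuclear counts in Col-0 total RNA and 1.89% ± 0.04 in total RNA labelled rh6812. In polysome RNA the shares ran from 1.42% to 1.44% and from 2.06% to 2.14%. In rRNA-depleted RNA at 0 min they were 1.45% ± 0.08 and 1.44% ± 0.04, a difference within the spread between replicates, whereas the shares did not overlap in either poly(A)+ set.

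In total RNA nearly all of these genes were higher in the libraries labelled rh6812. By edgeR's quasi-likelihood test with Benjamini-Hochberg adjustment, 49 of the 52 rose, 1 fell and 2 did not pass an adjusted p of 0.05. Of all 20949 genes tested, 64.6% were called, 32.2% higher and 32.4% lower. The median log2 difference was 0.82 over the members, a 1.76-fold rise, and -0.03 over all genes. All 23 small subunit genes rose, by 0.37 to 1.36, and 26 of 29 large subunit genes did. In 49 members every library labelled rh6812 lay above every Col-0 library, as it did in 33.8% of all genes tested.

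RPL3B, the minor gene for L3, a large subunit protein that reaches towards the peptidyl transferase centre, showed the steepest rise. Its Col-0 total RNA libraries held 15.9, 20.8 and 18.1 CPM, and those labelled rh6812 held 73.0, 85.1 and 71.7 CPM. The groups did not overlap, and the log2 difference was 2.07 ± 0.11 (SE; adjusted p = 1.2e-16). RPL10C encodes a copy of L10, which joins the large subunit late in its assembly. It held 149.7, 163 and 178 CPM in Col-0 against 439, 402 and 469.9 CPM in those labelled rh6812. The 3 values of each group lay far apart from the other group's, with a log2 difference of 1.42 ± 0.09 (adjusted p = 6.9e-15). RPS6A encodes S6, a target of S6 kinase in the TOR pathway. Its Col-0 values of 325, 320.4 and 384 CPM stood against 862, 832 and 951 CPM, without overlap, at a log2 difference of 1.36 ± 0.09 (adjusted p = 3.5e-14). AT3G53890, annotated as an S21e small subunit protein, rose by 1.35 ± 0.09 (adjusted p = 3.2e-14).

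Only 3 members departed from this direction or missed the threshold, all of the large subunit. AT2G40010 is 1 of 3 genes for P0, the protein that anchors the acidic stalk of the large subunit. It held 30.1, 25.6 and 34.5 CPM in Col-0 against 25.8, 24.7 and 25.1 CPM in those labelled rh6812, and these ranges overlap. Its log2 difference was -0.25 ± 0.11 (adjusted p = 0.043), and the call was lost without Col-0 replicate 1 (-0.24) or 3 (-0.15), without replicate 2 (-0.23) or 3 (-0.24) of the libraries labelled rh6812, and under DESeq2 (-0.23). RPL18 held 988, 827 and 1075 CPM in Col-0 against 825, 870.0 and 848 CPM in those labelled rh6812, ranges that overlap. Its log2 difference was -0.18 ± 0.09 (adjusted p = 0.083), and it was called lower, at -0.28, without Col-0 total replicate 2. The count of members called lower was 2 without that library or without any single polysome library labelled rh6812. RPL16A, among the least abundant members, had a log2 difference of 0.34 ± 0.16 (adjusted p = 0.062).

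**Figure D1:**
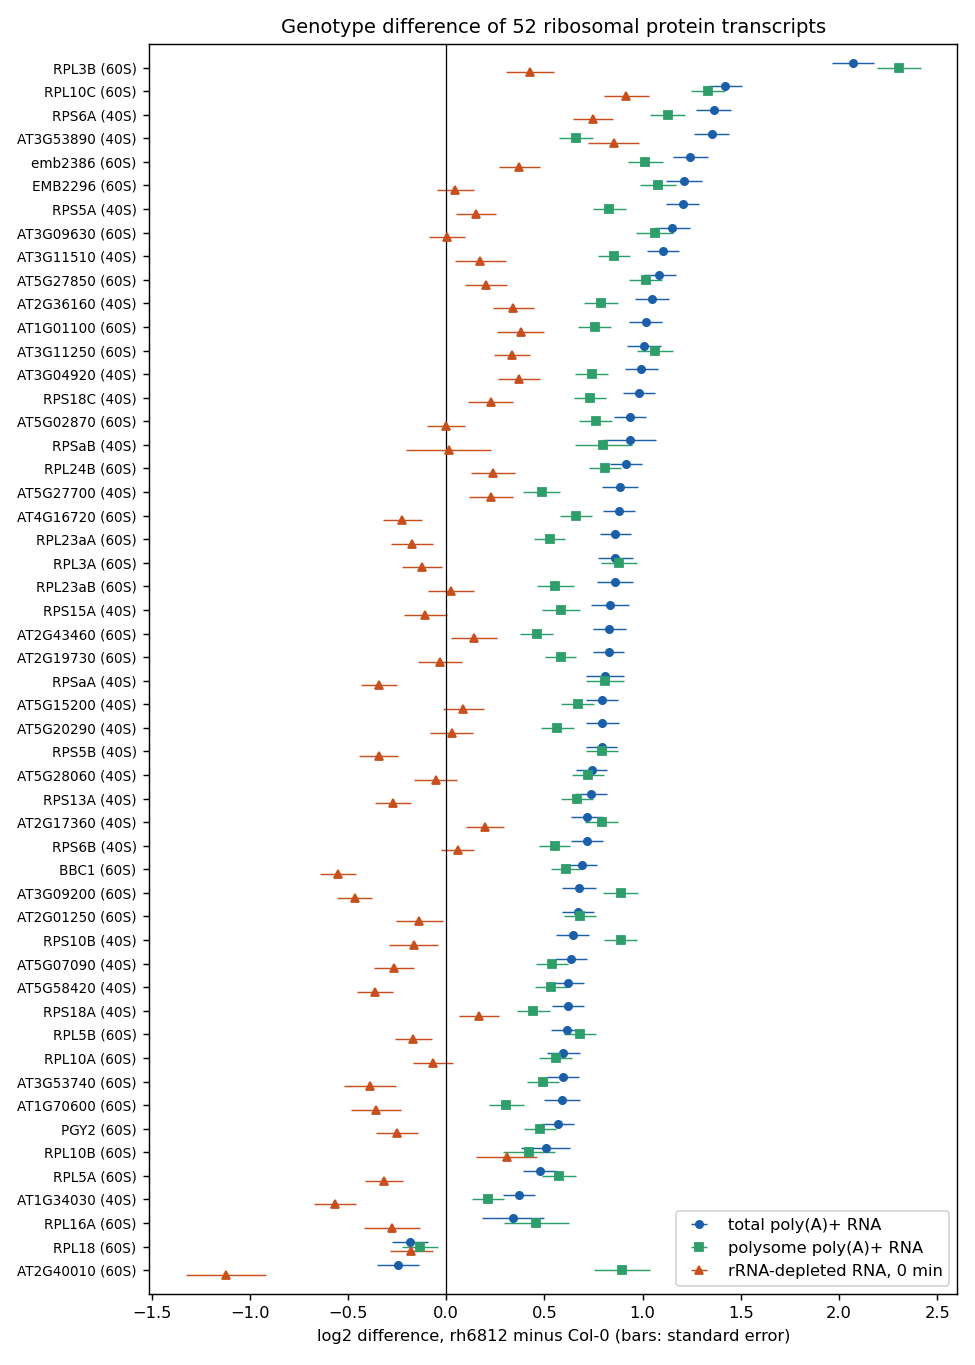
Log2 difference between genotypes (libraries labelled rh6812 minus Col-0) for each of the 52 genes, ordered by total RNA, with bars for the standard error and the subunit beside each name. Points for total and polysome RNA lie to the right of 0 for nearly all genes, while those for 0 min lie on both sides of it.

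Polysome RNA showed the same direction. There 51 members rose, none fell and 1 did not pass the test, against 63.5% of all genes called, 30.2% higher and 33.3% lower. No member was lower at an unadjusted p under 0.05 either, and DESeq2 called none lower. The median log2 difference was 0.68, or 1.60-fold, against -0.05 over all genes. All 49 members that rose in total RNA also rose in polysome RNA. Polysome and total libraries are separate groups of 3, and same-numbered ones may share a sample.

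RPL3B again led, with 18.2, 16.6 and 18.3 CPM in Col-0 polysome RNA against 88.4, 101 and 76.8 CPM, a log2 difference of 2.30 ± 0.11 (adjusted p = 1.9e-17). RPL10C followed with 198, 205 and 204 CPM against 532, 514 and 483 CPM, a log2 difference of 1.33 ± 0.09 (adjusted p = 2.6e-14). RPS6A stood at 439.5, 437 and 469.7 CPM against 996, 937 and 1007 CPM, a log2 difference of 1.13 ± 0.09 (adjusted p = 2.3e-12). In none of these genes did the groups overlap. EMB2296, which encodes the L2 family protein of the large subunit core, rose by 1.08 ± 0.09 (adjusted p = 1.1e-11). RPL18 was the member that did not pass, at -0.13 ± 0.09 (adjusted p = 0.21), although its 2285, 2301 and 2223 CPM in Col-0 all lay above the 1947, 2147 and 2117 CPM of the other group. AT2G40010, lower in total RNA, was higher in polysome RNA, with 5.57, 6.97 and 6.28 CPM in Col-0 against 12.1, 10.7 and 10.8 CPM in those labelled rh6812.

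In rRNA-depleted RNA at 0 min the members split. Of the 52, 9 were higher, 12 were lower and 31 did not pass, against 48.4% of all 21486 genes called, 24.4% higher and 24.0% lower. The median log2 difference was 0.00 over the members and -0.02 over all genes. Shares of members called in each direction were close to or below those of all genes. In 18 members every library labelled rh6812 lay above every Col-0 library, and in 19 below. Among all genes tested these shares were 26.9% and 27.1%, so by that measure the members' shares were somewhat above them. The small subunit contributed 4 higher and 6 lower genes and the large subunit 5 and 6.

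The 4 genes with the steepest rise in total RNA were among the higher ones, whereas EMB2296, named above for polysome RNA, was not called at 0 min (0.05 ± 0.09, adjusted p = 0.71). RPL10C held 122, 122 and 112 CPM in Col-0 at 0 min and 213, 236 and 223 CPM in those labelled rh6812. Without overlap between the groups, the log2 difference was 0.92 ± 0.11 (adjusted p = 2.8e-07). AT3G53890 rose by 0.85 ± 0.13 (adjusted p = 5.6e-06). RPS6A stood at 181, 194 and 173 CPM against 308, 316 and 296 CPM, a log2 difference of 0.75 ± 0.10 (adjusted p = 1.1e-06). RPL3B rose by 0.43 ± 0.12 (adjusted p = 0.0051), from 24.7, 24.6 and 21.3 CPM to 34.5, 30.5 and 30.0 CPM. The other 5 higher genes were AT1G01100 (an acidic stalk protein), emb2386 (L19e), AT3G04920 (S24e), AT2G36160 and AT3G11250 (P0), with log2 differences of 0.34 to 0.38.

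Among the 12 lower genes AT2G40010 fell most, by 1.12 ± 0.20 on the log2 scale (adjusted p = 6.3e-05), from 4.49, 3.87 and 4.20 CPM to 2.32, 1.70 and 1.73 CPM. AT1G34030, 1 of 3 genes for S18, fell by 0.57 ± 0.11 (adjusted p = 8.4e-05). BBC1, a large subunit gene, fell by 0.55 ± 0.09 (adjusted p = 1.8e-05), and AT3G09200, the main P0 gene, by 0.47 ± 0.09 (adjusted p = 1.3e-04). Scaling by library size alone moved the median of all genes at 0 min to 0.20 and that of the members to 0.22, and 22 members were then called higher and 3 lower. The members' position relative to all genes was near 0 under both scalings.

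The difference between the 2 sets was tested directly, in a comparison added after both sets had been seen. An edgeR interaction over the 6 total and 6 rRNA-depleted 0 min libraries gave 49 members with a higher genotype difference in total RNA, 0 with a lower one and 3 not called. Of all 20909 genes in that fit 30.6% were called, 16.9% higher and 13.8% lower. No member was lower at an unadjusted p under 0.05 or with DESeq2. The median of the interaction was 0.85 over the members and 0.04 over all genes. RPL3B had the highest value, 1.67 ± 0.16 (adjusted p = 5.8e-06), followed by BBC1 at 1.26 ± 0.13 (adjusted p = 7.5e-06), EMB2296 at 1.19 ± 0.15 (adjusted p = 3.4e-05) and RPSaA at 1.18 ± 0.16 (adjusted p = 8.7e-05). The members not called were RPL10B (0.22 ± 0.16), RPL16A (0.64 ± 0.24) and RPL18 (0.02 ± 0.15). The sets differ in poly(A)+ selection or rRNA depletion, in library protocol and in the cordycepin label, and these cannot be told apart.

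Of the 49 members that rose in total RNA, 9 rose at 0 min, 11 fell and 29 did not pass. The order of the members in total RNA was nevertheless largely kept at 0 min, and that in polysome RNA less so. Across the 52 genes the genotype differences in total RNA and at 0 min, which share no library, had a Pearson correlation of 0.73 and a Spearman correlation of 0.74. Between polysome RNA and 0 min, again without a shared library, the correlations were 0.39 and 0.38. All these sets share the genes' length and sequence, and genes are not independent replicates, so this is a description.

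**Figure D2:**
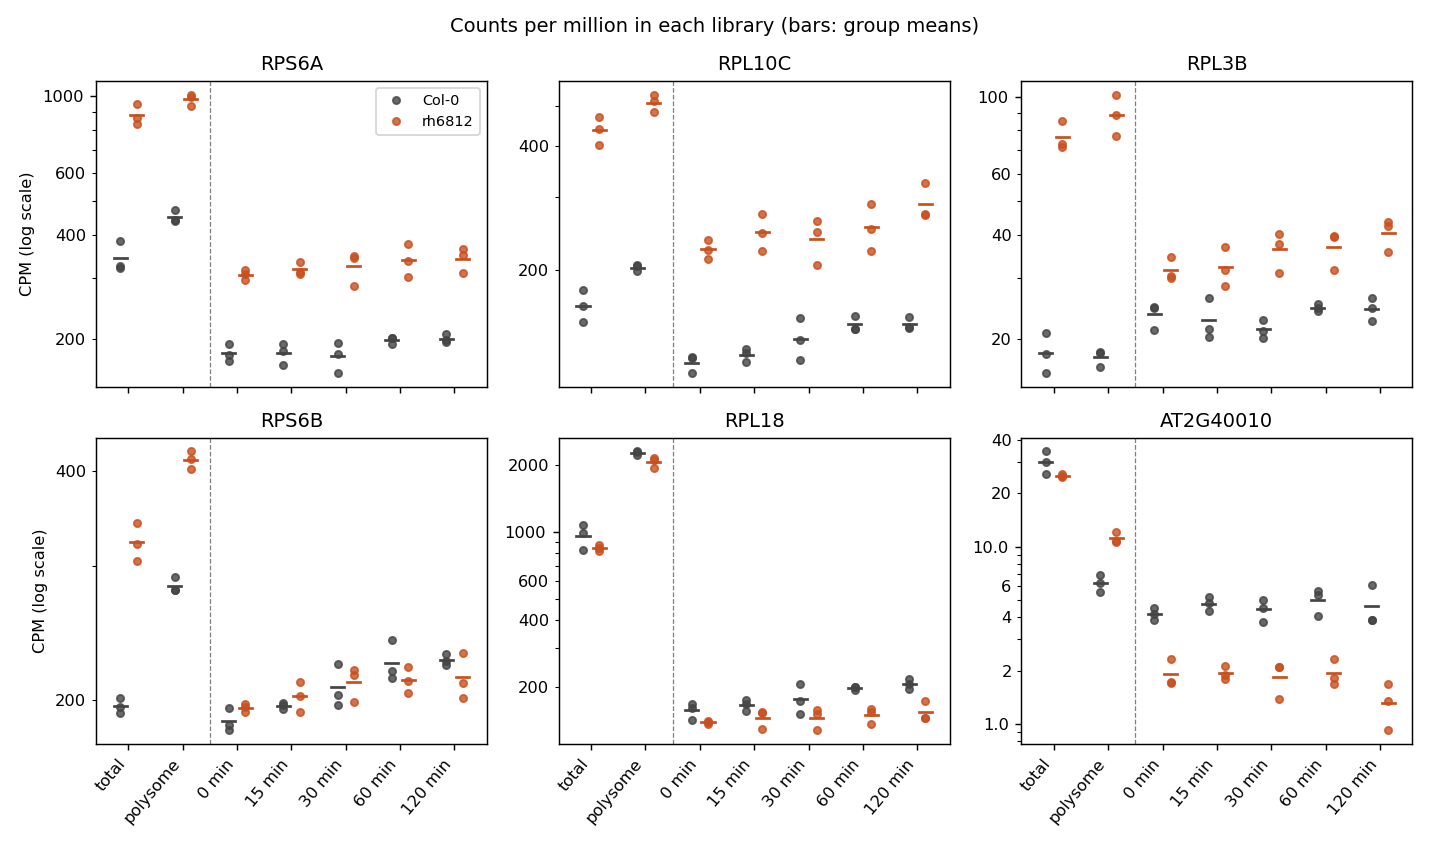
CPM on a log axis in each library for 6 genes, with the poly(A)+ groups left of the dashed line and the cordycepin times right of it, points for libraries and short bars for group means. RPS6A, RPL10C and RPL3B lie higher in the libraries labelled rh6812 in every group, while RPS6B does so in total and polysome RNA and overlaps between genotypes at every cordycepin time.

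Polysome RNA was compared with total RNA within each genotype, which asks how strongly each transcript was represented on polysomes. In Col-0, 40 members had a higher level in polysome than in total RNA, 3 a lower one and 9 did not pass, against 57.7% of all genes called, 30.7% higher and 27.0% lower. In the libraries labelled rh6812, 28 were higher, 3 lower and 21 not called, against 53.2% of all genes called, 26.0% higher and 27.2% lower. The median log2 ratio was 0.36 in Col-0 and 0.24 in the libraries labelled rh6812, against 0.04 and -0.01 over all genes. Scaled by library size alone, 23 members were higher and 7 lower in Col-0, and 16 and 8 in the other genotype. The median of all genes then moved to -0.19 and -0.17 and the members' medians to 0.14 and 0.08, still above all genes. Between 34 and 42 members were higher in Col-0 when single libraries were left out.

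RPL18, a large subunit protein gene and the most abundant member per kilobase in Col-0 total RNA, had the highest ratio in both genotypes. Its log2 ratio was 1.24 ± 0.09 in Col-0 (adjusted p = 2.5e-12) and 1.29 ± 0.09 in the libraries labelled rh6812 (adjusted p = 1.5e-12). emb2386 (L19e) had log2 ratios of 1.06 ± 0.09 and 0.83 ± 0.09, and PGY2 (L6 family) of 1.00 ± 0.08 and 0.91 ± 0.08. RPL23aA, for the L23a protein near the exit of the peptide tunnel, had 0.98 ± 0.08 in Col-0, and RPL5B, for the protein that carries 5S rRNA, had 0.81 ± 0.08 in the libraries labelled rh6812. These genes with the highest ratios all encode large subunit proteins. In the libraries labelled rh6812, 20 of 29 large subunit genes and 8 of 23 small subunit genes were called higher, and in Col-0 the counts were 22 of 29 and 18 of 23.

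The same 3 genes had a lower level in polysome RNA in both genotypes. AT2G40010 fell from 30.1, 25.6 and 34.5 CPM in Col-0 total RNA to 5.57, 6.97 and 6.28 CPM in Col-0 polysome RNA, a log2 ratio of -2.28 ± 0.12 (adjusted p = 1.9e-15). In the libraries labelled rh6812 its log2 ratio was -1.14 ± 0.13 (adjusted p = 6.3e-09). RPS15A, a small subunit gene, had log2 ratios of -0.61 ± 0.10 (adjusted p = 3.0e-06) and -0.86 ± 0.10 (adjusted p = 1.1e-08). AT5G27700, the other S21e gene, had -0.31 ± 0.09 (adjusted p = 0.0047) and -0.71 ± 0.09 (adjusted p = 1.5e-07). In Col-0, 6 members were called lower when polysome replicate 1 or total replicate 1 of the libraries labelled rh6812 was left out, and 5 without their polysome replicate 2 or 3 or without Col-0 total replicate 2.

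The ratio itself differed between genotypes in few members. The interaction called 1 member higher in the libraries labelled rh6812 and 4 lower, against 9.76% of all genes called, 3.30% higher and 6.45% lower, so the members' share was near that of all genes. AT2G40010 had a ratio that was higher by 1.14 ± 0.18 on the log2 scale (adjusted p = 4.4e-05). AT3G53890 had one that was lower, at -0.69 ± 0.12 (adjusted p = 2.9e-04). Its libraries held 105, 114 and 125 CPM in Col-0 total RNA and 175, 163 and 184 CPM in Col-0 polysome RNA. With the other genotype they held 319.6, 264 and 295 CPM in total RNA and 264, 277 and 285 CPM in polysome RNA, where the ranges overlap. AT5G27700 (-0.40 ± 0.13, adjusted p = 0.047), RPS5A (-0.37 ± 0.12, adjusted p = 0.041) and AT2G43460, an L38e gene (-0.37 ± 0.12, adjusted p = 0.040), lay near the threshold. The count of 4 dropped to 1 without any single polysome library of either genotype, without Col-0 total replicate 1, and without total replicate 1 or 3 of the libraries labelled rh6812. It was 1 as well with DESeq2's size factors or library size alone. The median difference was -0.10 over the members and -0.05 over all genes.

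**Figure D3:**
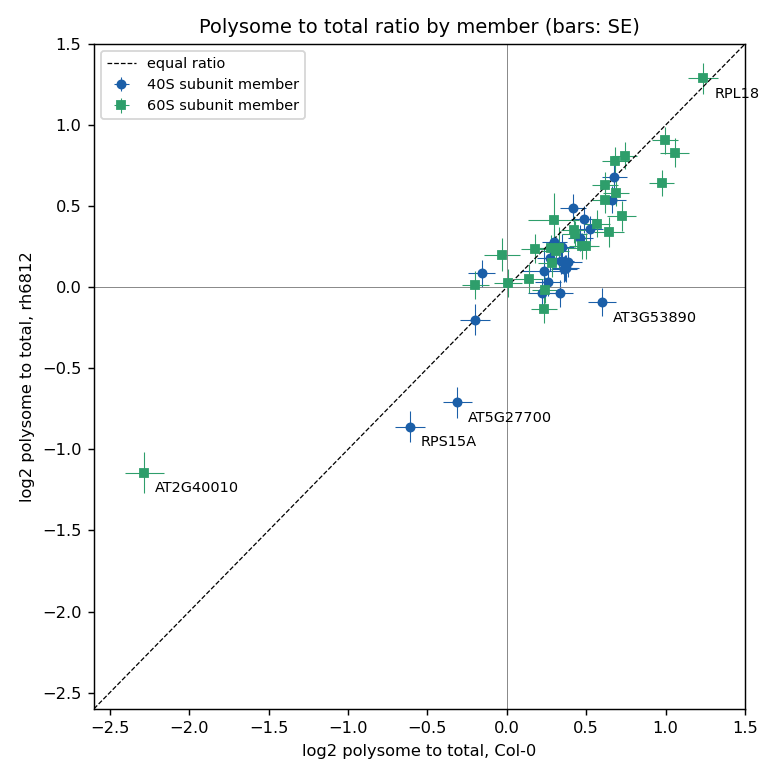
Log2 ratio of polysome to total RNA in Col-0 (x axis) and in the libraries labelled rh6812 (y axis) for each gene, marked by subunit, with bars for the standard error and a dashed line of equal ratio. Most genes lie right of and above 0, AT2G40010 lies far to the left, and AT3G53890 lies below the line.

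Under cordycepin most members rose relative to the bulk of transcripts in Col-0. The slope of log2 abundance per hour was positive and called in 37 members, negative and called in 1, and not called in 14, against 50.7% of all genes called, 23.4% higher and 27.3% lower. The median slope was 0.16 log2 units per hour over the members and -0.01 over all genes. With library size alone in place of TMM scaling, the median slope of all genes was -0.19, that of the members was -0.02, and 0 members were called higher and 7 lower. The direction of the members' slopes depended on the scaling, whereas their distance above the median of all genes did not.

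By group means the median Col-0 course was close to straight up to 60 min, but single replicates were not. The median change from 0 min, on the log2(CPM + 0.5) scale, was 0.05 at 15 min, 0.12 at 30 min, 0.25 at 60 min and 0.30 at 120 min. At both of the last times 50 of the 52 members lay above 0. Medians in Col-0 replicates 1, 2 and 3, relative to the 0 min group mean, were 0.12, 0.25 and -0.05 at 30 min. At 60 min they were 0.23, 0.15 and 0.32. AT2G43460 (L38e) had a slope of 0.23 ± 0.05 per hour (adjusted p = 1.9e-04). Its Col-0 libraries held 71.9, 62.6 and 60.7 CPM at 0 min and 97.7, 85.6 and 84.0 CPM at 120 min, without overlap. RPSaA, which encodes the main copy of the small subunit protein SA, had a slope of 0.23 ± 0.04 (adjusted p = 3.0e-06). AT2G17360 (S4 family) had 0.23 ± 0.04 (adjusted p = 1.4e-05) and AT5G28060 (S24e) 0.22 ± 0.04 (adjusted p = 1.3e-04). The exception was RPSaB, the minor copy of SA, with -0.28 ± 0.10 (adjusted p = 0.023), which was not called without Col-0 replicate series 2 (-0.24) or 3 (-0.30).

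In the libraries labelled rh6812 the members stayed closer to the bulk of transcripts. There 5 were called higher, 1 lower and 46 were not called, against 21.7% of all genes called, 10.1% higher and 11.6% lower, and the median slope was 0.04 per hour. Under library size alone none was higher, 5 were lower and the median slope was -0.06 per hour. The 5 were RPL10B (0.19 ± 0.07, adjusted p = 0.042), RPL3B (0.17 ± 0.05, adjusted p = 0.016), RPL10C (0.17 ± 0.05, adjusted p = 0.011), AT5G28060 (0.13 ± 0.04, adjusted p = 0.037) and AT2G17360 (0.12 ± 0.04, adjusted p = 0.022). RPL10B held 12.9, 13.8 and 11.2 CPM at 0 min and 13.7, 23.8 and 13.8 CPM at 120 min, where replicate 2 stood apart, and its slope without replicate series 2 was 0.06. RPSaB was again lower, at -0.33 ± 0.10 (adjusted p = 0.018). The count of 5 was 3 without Col-0 replicate series 1 or without series 1 of the libraries labelled rh6812, 1 without their series 2 and 10 without their series 3. RPSaB was not called without any of the 3 series of the libraries labelled rh6812.

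The slope itself differed between genotypes in 3 members, all lower in the libraries labelled rh6812, and 0 were higher. Of all genes 13.9% were called, 9.29% higher and 4.56% lower. The members' share called lower was thus near that of all genes, and their share called either way was below it. No member was higher at an unadjusted p under 0.05 or with DESeq2. AT1G34030 (S18) differed by -0.23 ± 0.06 per hour (adjusted p = 0.013). Its Col-0 libraries went from 64.0, 67.1 and 65.7 CPM at 0 min to 78.9, 81.0 and 83.4 CPM at 120 min, and those labelled rh6812 from 46.3, 43.7 and 42.9 CPM to 39.7, 47.3 and 41.1 CPM. The Col-0 libraries rose without overlap and the others did not separate. RPSaA differed by -0.20 ± 0.05 (adjusted p = 0.0081) and AT3G09200 (P0) by -0.16 ± 0.05 (adjusted p = 0.027). The median difference was -0.11 over the members and 0.00 over all genes, and 49 of the 52 lay below 0. Of the 52, 19 were lower at an unadjusted p under 0.05, and DESeq2 called 16 lower. With a replicate block in the fit 8 were lower, or 9 with a series replicate block. None was called with library size alone or with times up to 60 min.

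**Figure D4:**
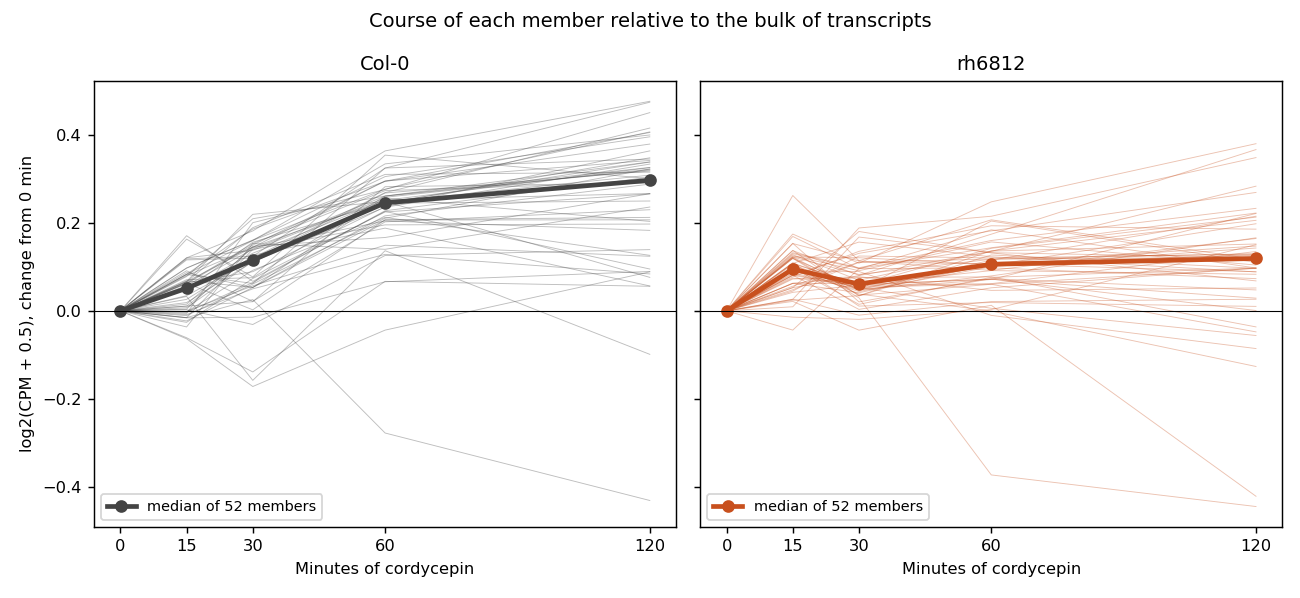
Change from 0 min on the log2(CPM + 0.5) scale against minutes of cordycepin, with a thin line for the group mean of each of the 52 genes and a thick line for their median. Under the TMM scaling used here the Col-0 median reached 0.30 at 120 min and that of the other genotype 0.12, while under library size alone the median slopes of the members in both genotypes were below 0.

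Small subunit transcripts made up more of the members' sum in the libraries labelled rh6812, but in poly(A)+ RNA only with RPL18 included. The ratio of summed CPM of the 23 small to the 29 large subunit genes was 0.611 ± 0.005 (SD, n = 3) in Col-0 total RNA and 0.666 ± 0.018 in that labelled rh6812. In polysome RNA it was 0.489 ± 0.007 and 0.523 ± 0.004, and at 0 min 0.659 ± 0.008 and 0.715 ± 0.015. The genotypes did not overlap in any of these sets. Without RPL18, the most abundant member in Col-0 total RNA and left out after the data had been seen, the ratios became 0.716 ± 0.020 and 0.721 ± 0.018 in total RNA, which overlap, and 0.633 ± 0.011 and 0.605 ± 0.010 in polysome RNA, where the order was reversed. At 0 min they were 0.686 ± 0.007 and 0.741 ± 0.017 without it, again without overlap. Over the 5 cordycepin times the group means with all members lay between 0.654 and 0.661 in Col-0 and between 0.711 and 0.719 in the libraries labelled rh6812. The ratio depends on which genes are listed and is no count of subunits.

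Paralogues of the same protein did not always move together. For 23 pairs the log2 ratio of their CPM was compared between genotypes, averaged over total, polysome and 0 min RNA, with an exact two-sided permutation test over 400 arrangements whose smallest p is 0.005. Scaling of libraries cancels in such a ratio. After Benjamini-Hochberg adjustment over the 23 pairs 17 differed. Each of these had the same sign in all 3 sets, as had 19 of all 23 pairs. The test takes the mean of the 3 sets, so such agreement among called pairs is partly built in. Some called pairs were near 0 in a set, such as AT5G28060 with AT3G04920 in polysome RNA (-0.02). In 10 pairs the libraries of both genotypes did not overlap in any set. Pairs of other genes were not compared, so these counts have no background share beside them. The coding sequences of the pairs were 67.4% to 92.7% identical, so reads of close copies may have been split between them by the authors' counting. Pairs within a family of 3 genes share members.

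In the L3 family the ratio of RPL3A to RPL3B fell by 1.04 (log2, exact permutation p = 0.005, adjusted p = 0.0072). RPL3A rose from 655, 759 and 750.3 CPM to 1257, 1327 and 1344 CPM in total RNA, without overlap, while RPL3B rose more steeply, as given above. Per kilobase RPL3B made up 2.87% ± 0.20 (SD, n = 3) of the family in Col-0 total RNA and 6.40% ± 0.55 in that labelled rh6812. RPL3A therefore remained the main source of L3 transcripts in both genotypes.

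In the L18 family the ratio of RPL18 to AT5G27850 fell by 0.93 (exact permutation p = 0.005). AT5G27850 held 189.9, 223 and 216 CPM in Col-0 total RNA and 469.7, 425 and 440.3 CPM in that labelled rh6812, while RPL18 overlapped between genotypes. The share of AT5G27850 in the family was 16.6% ± 2.63 and 32.1% ± 1.68 in total RNA, and 47.2% ± 1.28 and 53.6% ± 1.98 at 0 min. RPL18 thus had a far higher share in poly(A)+ than in rRNA-depleted RNA of the same genotype, sets that differ in library protocol. AT5G27850 overlaps a gene on the opposite strand over 256 bases, and the strand setting of the counting was not given in the sources used here.

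In the P0 family the ratio of AT3G11250 to AT2G40010 rose by 0.93 (exact permutation p = 0.005). Averaged over replicates its log2 value went from -0.05 to 1.18 in total RNA, from 2.29 to 2.55 in polysome RNA and from 2.17 to 3.46 at 0 min. AT3G09200 supplied 86.1% ± 0.31 of the family per kilobase in Col-0 total RNA and 87.2% ± 0.80 in that labelled rh6812, and overlaps a neighbour on the same strand by 100 bases.

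In the L10 family RPL10A to RPL10C fell by 0.86 and RPL10C to RPL10B rose by 0.84 (each exact permutation p = 0.005). For RPL10A to RPL10B the mean change was -0.02 (exact permutation p = 0.85). That mean joins opposite signs, with 0.11 in total RNA, 0.19 in polysome RNA and -0.36 at 0 min. RPL10C went from 26.0% ± 0.43 to 38.3% ± 0.38 of the family in total RNA and from 34.6% ± 0.65 to 50.7% ± 0.99 at 0 min. In the S6 pair RPS6A to RPS6B rose by 0.64, and RPS6A went from 64.0% ± 1.86 to 73.6% ± 0.88 in total RNA and from 49.8% ± 0.82 to 61.5% ± 0.62 at 0 min. The S18 pair of RPS18C and AT1G34030 changed by 0.64 as well.

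The 6 pairs that did not pass were AT5G02870 with AT3G09630 (L4), RPSaA with RPSaB, RPL23aA with RPL23aB, AT5G07090 with AT5G58420 (S4 family), RPL10A with RPL10B, and AT3G11510 with AT2G36160. Their mean changes ran from -0.17 to 0.04, but a mean can hide changes of single sets. RPSaA with RPSaB changed by -0.41 at 0 min and by 0.03 in polysome RNA. The L4 pair changed by -0.30 in polysome RNA and by -0.01 at 0 min. With total and polysome RNA alone no pair could pass, since the smallest exact p is then 0.1, and the same holds when a replicate number is left out, where it is 0.0556.

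**Figure D5:**
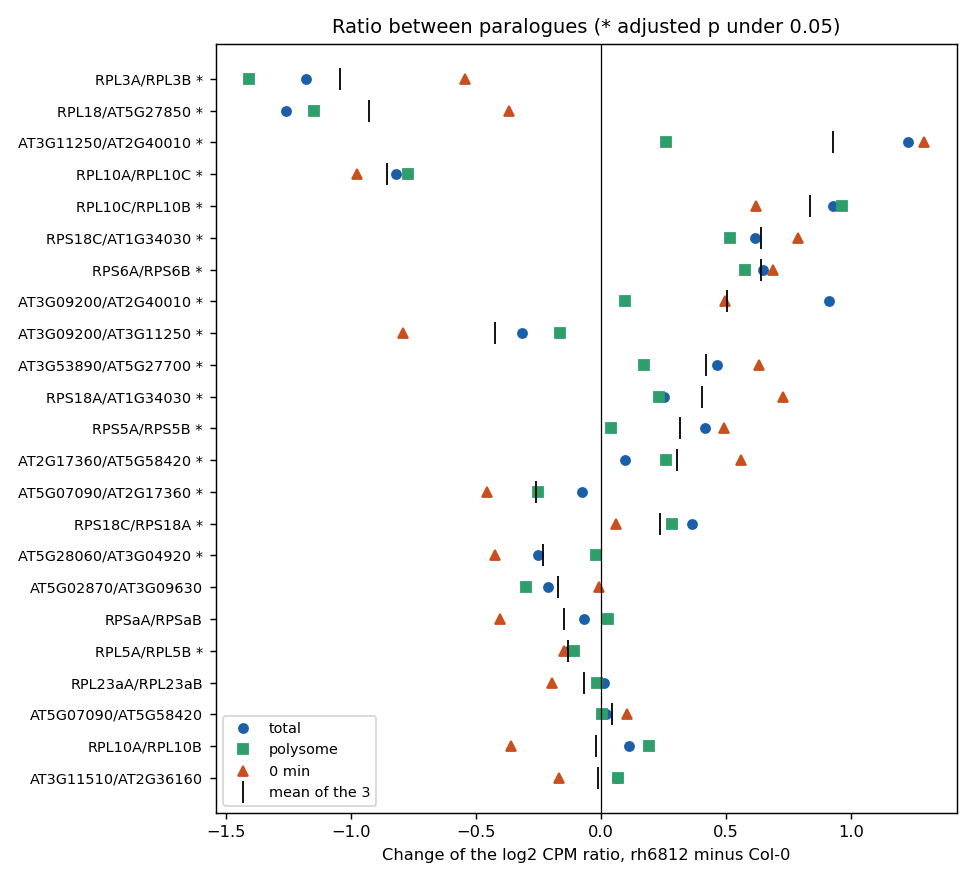
Change of the log2 CPM ratio between paralogues (libraries labelled rh6812 minus Col-0) for 23 pairs in total, polysome and 0 min RNA, with a vertical tick for the mean of the 3 and an asterisk where the adjusted p of the exact permutation test is under 0.05. The ratio of RPL3A to RPL3B moved furthest. For RPL10 the mean of the pair without RPL10C lay near 0, with 0 min RNA below 0 and the other sets above.

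Genes outside these 52 that serve the same machinery were counted from separate lists. Shares of all genes called higher were 32.2% in total RNA, 30.2% in polysome RNA and 24.4% at 0 min. Those called lower were 32.4%, 33.3% and 24.0%. Of 101 other cytosolic ribosomal protein genes tested, 100 were higher in total RNA, 98 in polysome RNA, and 22 were higher and 16 lower at 0 min. All 11 listed elongation factor genes and all 13 listed ribosome biogenesis genes were higher in total RNA, with median log2 differences of 0.80 and 1.05. At 0 min 2 elongation factor genes were higher and 2 lower, and 1 biogenesis gene was higher and 9 lower. Of 18 nuclear genes for plastid ribosomal proteins, 16 were higher in total RNA, with a median of 0.35, and 4 were higher and 3 lower at 0 min. Of 14 genes for initiation factors and poly(A)-binding proteins, 8 were higher and 4 lower in total RNA, and of 6 genes for TOR signalling and TCTP 3 were higher and 2 lower.

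Markers of cell types were counted as well. Of all genes tested, 32.2% were higher and 32.4% lower in total RNA, and 30.2% and 33.3% in polysome RNA. At 0 min these shares were 24.4% and 24.0%. Of 8 markers of dividing cells, 5 were higher and none lower in total RNA, and their summed level was 45.0 to 60.8 CPM in Col-0 total RNA against 61.8 to 75.8 CPM in that labelled rh6812. In polysome RNA 6 were higher and none lower, at 34.8 to 37.8 against 69.1 to 74.3 CPM. At 0 min 5 were higher and 1 lower, at 33.4 to 37.2 against 49.5 to 53.4 CPM, while the summed level of the 52 members was 6359.9 to 6796 against 6568 to 6725 CPM. Of 6 root markers 4 were higher in total RNA, with summed levels of 62.7 to 85.2 against 95.9 to 128 CPM, and 1 was higher and 1 lower at 0 min, at 20.8 to 25.1 against 20.7 to 23.8 CPM. In polysome RNA 1 root marker was higher, and the sums of 27.9 to 33.3 and 29.9 to 33.9 CPM overlapped. Of 8 green tissue markers 3 were higher and 5 lower in total RNA, with summed levels of 39187 to 52180 against 46451 to 52441 CPM. In polysome RNA 4 were higher and 4 lower, at 59236 to 63166 against 69330 to 77245 CPM. At 0 min none was higher and 5 were lower, at 17669.9 to 22031 against 15444 to 16757 CPM, without overlap and in the other order. No marker in these lists was at 0 counts in any group, and their part in the members' change was not tested. In whole seedlings fewer cells of a type and less RNA per cell cannot be told apart.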

How the data were processed

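Whole-number counts of reads per gene were deposited by the authors in a single table, with no normalization apparent in the values. Bowtie2 2.2.5 and TopHat2 2.0.14 with the TAIR10 genome were used, per the submitters' processing notes. The counting program, its annotation and its strand setting were not given in the sources used here. Reads of close copies, of overlapping genes and of antisense genes may therefore be split or merged. Of the 52 members, 8 overlap another protein-coding gene in the TAIR10.1 annotation.

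Names, products and lengths came from RefSeq's TAIR10.1 tables, which matched 27455 of the 27667 loci. For 212 loci the poly(A)+ columns held no value, and no column was left out. Libraries of a group differed beyond sampling noise, with chi-square values of 3.02 to 29.4 per degree of freedom, so none was counted as a duplicate.

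The tests used edgeR 4.0.16 under R 4.3.3, with TMM scaling, filterByExpr (minimum count 10, minimum total 15), the robust quasi-likelihood test and Benjamini-Hochberg adjustment over all genes tested, two-sided, at a threshold of 0.05. The 12 poly(A)+ libraries formed one fit. The 30 rRNA-depleted libraries were fitted with group means and with a straight line per genotype against hours, so slopes are relative to the bulk of transcripts. A standard error (SE) was derived as the size of the log2 value divided by the root of its F. CPM are on the TMM scale, and log2 ratios of CPM used a pseudocount of 0.5. DESeq2 1.42.0 and other scalings, filters, blocks and left-out libraries were alternatives. Simulated data with the same spread for every gene were used for the genotype change in total RNA and the genotype difference of the slope. The other comparisons were not simulated. The interaction of total and 0 min RNA was a later addition, since the plan had kept both library types in separate fits.

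The members, the gene lists and the rule for named genes were chosen with earlier results of these data known. In each comparison up to 4 members past the threshold with the largest change in each direction were named, with every member called against the majority and every uncalled member where these were 6 or fewer. Values in every library were given for RPS6A, RPL10C and the first member named in a comparison, and other members shown this way were picked after their values were seen. Lists were described by counts and medians, with no test of a list.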

Additional observations from a re-analysis of the deposited data

Results flagged for a closer look

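In 3 comparisons a difference between effects was tested and passed in some members. The genotype difference was higher in total RNA than in rRNA-depleted RNA at 0 min in 49 members, by an edgeR interaction added after both sets had been seen. The highest values on the log2 scale were those of RPL3B (1.67), BBC1 (1.26), EMB2296 (1.19) and RPSaA (1.18). The RNA sets differ in selection, library protocol and cordycepin label, which cannot be told apart.

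The polysome to total ratio differed between genotypes in 5 members by edgeR's interaction, while 9.76% of all genes were called, so the members' share was near that of all genes. It was higher in the libraries labelled rh6812 in 1 member, AT2G40010 (1.14), and lower in 4, namely AT3G53890 (-0.69), AT5G27700 (-0.40), RPS5A (-0.37) and AT2G43460 (-0.37). The count of 4 dropped to 1 without some single libraries, with DESeq2's size factors and with library size alone.

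The cordycepin slope differed in 3 members, all lower in the libraries labelled rh6812, namely AT1G34030 (-0.23 per hour), RPSaA (-0.20 per hour) and AT3G09200 (-0.16 per hour). Of all genes 13.9% were called and 4.56% were lower, so the members' share called lower was near that of all genes. The count of 3 was 0 with library size alone, with times up to 60 min and with 120 min set against 0 min. It was 8 with a replicate block, 9 with a series replicate block and 16 with DESeq2's own test.

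Groups held 3 libraries each, too few for a check of single outlying values.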

How the results depend on the processing

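The rise of the members in total RNA, with 49 higher, and in polysome RNA, with 51, and the higher genotype difference in total than in 0 min RNA, with 49, were within 1.5 times of these counts under every scaling, filter, tool, block and left-out library tried. Counts of members called lower in total RNA (1) were 0 with DESeq2's size factors, with TMM factors without ribosomal protein genes and with DESeq2's own test, and 2 with library size alone, which gave 1 lower in polysome RNA in place of 0. Library size alone moved the median of all genes from -0.03 to -0.18 in total RNA and from -0.05 to -0.14 in polysome RNA. With it 23 members were higher and 7 lower in the polysome to total ratio in Col-0 (40 and 3), 16 and 8 in the libraries labelled rh6812 (28 and 3), and 1 was lower in the difference of that ratio (4). At 0 min it gave 22 higher and 3 lower (9 and 12). For slopes it gave 0 higher and 7 lower in Col-0 (37 and 1), 0 higher and 5 lower in the libraries labelled rh6812 (5 and 1), and 0 lower in their difference (3). DESeq2's size factors gave 5 lower ratios in Col-0, 1 lower difference of the ratio and 7 lower slope differences, and DESeq2's own test gave 6 lower ratios in Col-0 and 16 lower slope differences. With times up to 60 min 0 slopes were lower in Col-0, 0 higher and 0 lower in the libraries labelled rh6812, and 0 differed. With 120 min set against 0 min in place of the line, 0 were lower in Col-0, 3 higher and 0 lower in the libraries labelled rh6812, and 0 differed. Scaling to nuclear loci only, added after seeing the data, moved no count by over 1.5 times.

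Leaving out libraries gave 0 to 2 members lower in total RNA, 3 to 6 lower ratios in Col-0, 1 to 4 lower differences of the ratio, 0 to 1 lower slopes in Col-0, and 1 to 10 higher and 0 to 1 lower slopes in the libraries labelled rh6812. Among paralogues 17 of 23 pairs were called, 17 with a pseudocount of 1, 15 of 20 pairs with at least 10 CPM, and 0 with total and polysome RNA only or without any replicate number, 0 to 0, since those tests cannot pass. Leaving out RPL18, chosen after seeing the data, moved the genotype difference of the subunit ratio from 0.054 to 0.0047 in total RNA and from 0.034 to -0.029 in polysome RNA, and left it at 0.055 at 0 min. The causes of these moves were not tested, except where the alternative itself removes samples.

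The labels give no source for pairing by replicate number, and not every same-numbered pair correlated above 0.1, so the samples were not treated as paired. Deviations of same-numbered libraries correlated at -0.07 to 0.36 (median 0.09) in the poly(A)+ set and -0.36 to 0.70 (median 0.31) in the rRNA-depleted set, against medians of -0.06 and -0.14 for other pairs. Averaged over the other groups, 11 of 12 and 30 of 30 libraries correlated best with their own number, a hint from the data and not the design. With the replicate block 5 ratios were lower in Col-0 and 8 slope differences were lower, or 9 with a series replicate block, and 50 members were higher in total RNA. Among single members and pairs, 973 values under an alternative stayed on their side of the threshold, 110 lost and 13 gained a call, and none reversed. Of the 110, 6 were pairs with total and polysome RNA only and 6 were pairs for each replicate number left out. No pair can pass under those settings, so these losses were fixed in advance.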
